A study of Mus musculus with 4 samples.

Results

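Nonsense-mediated decay (NMD) and ribosome rescue act on mRNAs through the ribosomes that translate them. Here 9 mouse genes that encode their central factors were followed: *Upf1*, *Upf2*, *Upf3a*, *Upf3b*, *Smg1*, *Smg5*, *Smg6*, *Pelo* and *Ltn1*. They were taken by symbol, after gene identifiers were matched to GENCODE M21, and all 9 were found among the 31053 genes listed. All 9 also passed the filter on low counts that left 12336 genes for testing. The samples were wild-type primary cortical neurons of the mouse, with no transgene named in the labels. RPS2 belongs to the small ribosomal subunit, and the RNA crosslinked to it was recovered with an antibody in an eCLIP protocol (enhanced crosslinking and immunoprecipitation) and sequenced as 2 RPS2 IP libraries, and 2 total RNA libraries were made from the samples ahead of the pulldown. The study took IP counts over total RNA counts per gene as a reading of translational efficiency. The labels give rRNA depletion as the treatment of both IP libraries but none for the total RNA libraries, so the pulldown and that step cannot be told apart here. The sources used here do not say whether the replicates were separate cultures, so what the spread between them reflects is not known. Microglial and astrocyte markers differed between the replicate numbers (below). Without pairing the p-values measure the spread between these libraries. With the replicate number as a block they rest on a spread pooled over genes.

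NMD degrades mRNAs on which translation ends too early. The helicase UPF1 gathers at terminating ribosomes and is linked by UPF2 and the paralogues UPF3A and UPF3B to exon junction complexes that remain downstream of the stop codon. The kinase SMG1 then phosphorylates UPF1, which recruits the endonuclease SMG6 and the adaptor SMG5. Ribosome rescue deals with ribosomes that stall before a stop codon is read: Pelota, encoded by *Pelo*, enters the empty A site with HBS1L and starts splitting of the subunits, and Listerin, the E3 ubiquitin ligase encoded by *Ltn1*, marks the nascent chain that stays on the large subunit. In neurons NMD is known for its control of transcripts such as *Arc* and *Robo3*, and *UPF3B* is a known gene of X-linked intellectual disability.

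Because these factors act where ribosomes terminate or stall, the stop codons of 5 members that the results below turn on are shown in their contexts, which lie at the genes' own termination sites. Each window was read from the GENCODE M21 transcript on GRCm38 (mm10), 5′ to 3′ on the coding strand, with the stop codon in capitals.
Upf1: tcccagtacTAGaaggtagcg
Upf3a: aaggcccagTAGaccatgggc
Upf3b: ggagaggagTGAgaagtccaa
Smg5: gagattggtTGAgactggtct
Pelo: gaagaggatTAAgactggcag
The *Upf1* window spans a splice junction and lies within chr8:70332474-70332634 on the minus strand. The others lie at chr8:13798463-13798483 (plus) for *Upf3a*, chrX:37092503-37092523 (minus) for *Upf3b*, chr3:88361097-88361117 (plus) for *Smg5* and chr13:115088521-115088541 (minus) for *Pelo*. TGA ended 6 of the 9 coding sequences, against 51.1% of the 12124 tested genes with an annotated coding transcript. TAG ended *Upf1* and *Upf3a* (23.2% of genes) and TAA ended *Pelo* alone among the members (25.7%). *Upf1* was the member with an exon junction downstream of its own stop codon, and that junction lay 3 bases after it.

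The genes span a wide range of sizes. *Upf1* occupies chromosome 8 from 70331525 to 70353278 on the minus strand with 24 exons in the transcript used, and *Upf3a* lies on the same chromosome from 13785615 to 13799193 on the plus strand. *Upf2* lies on chromosome 2 from 5951469 to 6056703 (plus), *Upf3b* on chromosome X from 37091678 to 37110322 (minus), *Smg5* on chromosome 3 from 88336260 to 88362338 (plus) and *Smg6* on chromosome 11 from 74925823 to 75164448 (plus). *Smg1*, on chromosome 7 from 118131308 to 118243670 (minus), was the longest in coding sequence, with 3658 codons over 63 exons and a 3′ UTR of 4233 bases. *Pelo*, on chromosome 13 from 115088355 to 115090186 (minus), was the shortest, with 385 codons over 2 exons, and its 3′ UTR stood at percentile 8.74 of the tested genes. *Ltn1* lies on chromosome 16 from 87376651 to 87432612 (minus). The members' median coding length was 3375 bases against 1446 over the 12124 genes, whereas their median 5′ UTR (145 against 190 bases) and 3′ UTR (1230 against 1122 bases) were close to those of the other genes.

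Several features of these transcripts bear on the pathway itself. An ATG upstream of the start codon was present in 3 of the 9 members, against 53% of genes. In *Upf2* and *Smg1* the frame it opens runs 39 and 21 bases and overlaps the annotated start, and in *Smg5* it opens and closes within the 5′ UTR, with 30 codons over 93 bases. Such a closed upstream frame was found in 45.4% of genes. All 9 members had a purine 3 bases before the start codon (85.4% of genes). The annotation gives *Smg1*, *Smg5* and *Smg6* 1 transcript each of the NMD class, and 5 of the 10 *Smg1* transcripts are of the retained-intron class. The counts are per gene and do not separate these transcripts.

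The 2 IP libraries held 16460545 and 9941486 counts and the total RNA libraries 5281196 and 4899718. The members took between 0.0249% and 0.0472% of the counts, and the share was higher in replicate 2 than in replicate 1 in both kinds of library. *Gm42418* held 42.6% and 27.9% of the counts in IP replicates 1 and 2, and 39.8% and 15.3% in total RNA replicates 1 and 2. It is annotated as a lincRNA, but what its reads derive from was not tested. In its single-cell data the study filtered cells on the counts of this gene. Neuronal markers (9 of 9 listed in the tables) summed to between 4081 and 4627 CPM (counts scaled by library size after TMM adjustment). Markers of microglia and of astrocytes moved with the replicate number. The 6 microglial markers summed to 86.7 and 90.9 CPM in replicate 1 of IP and total RNA but to 7.36 and 6.08 CPM in replicate 2. The 5 astrocyte markers summed to 1861 and 1573 CPM against 633 and 605 CPM. The 6 oligodendrocyte markers lay between 57.2 and 67.4 CPM, with *Mog* at 1 count in total RNA replicate 1 and 0 in the other libraries. The 4 endothelial and mural markers also moved with the replicate number. They summed to 24.1 and 22.3 CPM in replicate 1 of IP and total RNA and to 5.75 and 7.40 CPM in replicate 2. Most of this came from *Pdgfrb*, and *Cldn5* was at 0 throughout. In such bulk cultures fewer cells of a type and less RNA per cell cannot be told apart.

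Per kilobase of exon, *Upf1* was the highest of the 9 members and the UPF1 partners were the lowest. *Upf1* lay at 21.8 and 26.1 CPM per kb in the total RNA libraries and at 18.0 and 21.7 in the IP libraries. *Ltn1* followed with 8.22 ± 0.142 in total RNA and 8.84 ± 1.66 in IP (mean ± SD, n = 2 libraries each, as for all levels below), and *Smg5* with 8.06 ± 1.71 and 6.37 ± 1.65. Their ranges overlapped in total RNA but not in IP. *Pelo* stood at 5.34 ± 1.45 CPM per kb in total RNA and 4.47 ± 0.520 in IP. *Smg6* (3.15 ± 0.690 and 2.99 ± 0.263) and *Smg1* (2.97 ± 0.0806 and 2.90 ± 0.0333) overlapped in both kinds of library. The endonuclease and the kinase that licenses its recruitment were thus read at levels per length that their spread did not separate. In total RNA *Upf3b* (1.31 ± 1.06), *Upf3a* (1.27 ± 0.887) and *Upf2* (0.964 ± 0.132) each overlapped the next. In IP *Upf3a* (1.43 ± 0.170), *Upf2* (0.987 ± 0.182) and *Upf3b* (0.710 ± 0.146) did not. The order of *Ltn1* and *Smg5*, and of *Upf2* and *Upf3b* in IP, depends on the length used.

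**Figure D1:**
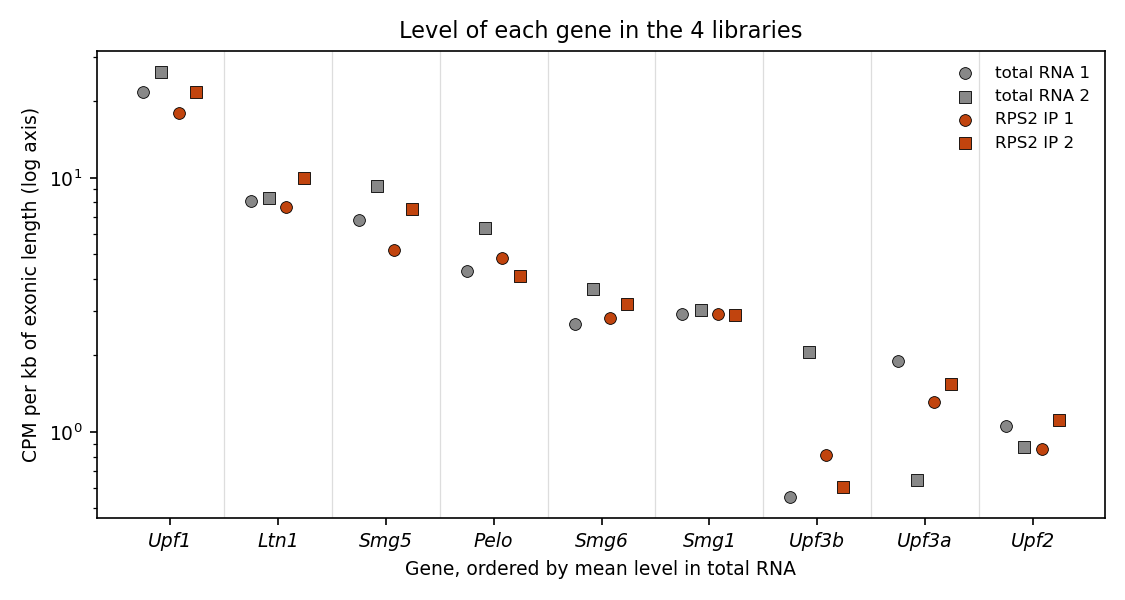
Level of each member in the 4 libraries, in CPM per kilobase of exonic length on a log axis, with genes ordered by their mean in total RNA; circles are replicate 1 and squares replicate 2, grey total RNA and orange RPS2 IP. *Upf1* lies above all others in every library, and the points of *Upf3a* and *Upf3b* in total RNA lie far apart.

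The position of *Pelo* depends on how its length is counted. On the same strand it shares 739 of its 1600 exonic bases (46.2%) with *Gm49395*, a protein-coding model that takes in *Pelo* exons and that had 0 counts in all 4 libraries. The shared stretches run from 115088356 to 115088961 and from 115090054 to 115090186 and hold 37.1% of the *Pelo* coding sequence. Reads lying there fall in 2 genes and, as the counting was set, were given to neither. Over the 861 bases that could be counted *Pelo* stood at 9.93 ± 2.70 CPM per kb in total RNA and 8.30 ± 0.967 in IP, which moved it from the fourth place among the members to the second in total RNA and the third in IP. Its ratio of IP to total RNA rests on those bases alone. The exonic length of *Smg1* includes 5 transcripts with retained introns, and on its annotated coding transcript it moved from the sixth place to the fifth in total RNA, at 4.58 ± 0.124 CPM per kb. On that length *Smg5* (12.6 ± 2.67 in total RNA and 9.97 ± 2.58 in IP) stood above *Ltn1* (8.33 ± 0.144 and 8.95 ± 1.68), without overlap in total RNA and with overlap in IP. *Upf3a* then stood at 4.07 ± 0.485 in IP, and *Upf3b* (1.21 ± 0.250) stood above *Upf2* (1.04 ± 0.193) there with overlapping ranges.

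The members' ratios of IP to total RNA centred near those of all genes. Without pairing of the replicates, edgeR's quasi-likelihood test with Benjamini-Hochberg adjustment called 0 of the 9 members and 0 of all 12336 genes (0%). In simulated data the same test recovered 0 of 67 genes changed by a log2 fold of 2. Its 0 calls therefore do not show that no gene differed. At an unadjusted p under 0.05 it gave 0 members and 349 genes (2.83%), and DESeq2 called 0 members and 5 genes, all lower in IP. Each IP library has a total RNA library from its own sample, and with the replicate number as a block 1749 genes passed (14.2%), 931 lower in IP (7.55%) and 818 higher (6.63%). Among the members 1 of 9 passed (11.1%), *Smg5*, which was lower. That share lies near the share of all genes. The members' median log2 fold change with the block was −0.071, against 0.011 over all genes, and it was below 0 for 6 members and above 0 for 3.

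On the CPM scale *Upf1* was lower in both IP libraries than in both total RNA libraries. IP replicate 2 and total RNA replicate 1 were narrowly apart, and their order depends on the scaling. By library size only, IP replicate 2 (1115 counts of 9925981) stood above total RNA replicate 1 (453 of 5273430). It stood at 83.2 and 100.1 CPM in IP replicates 1 and 2 and at 100.9 and 120.5 CPM in total RNA, from 453 to 1151 counts per library. With TMM scaling the groups did not overlap. That held for 1 of 9 members and for 31.8% of all genes (14.9% in this direction, and 16.9% with IP above, where no member stood). The log2 ratio of IP to total RNA was −0.28 in pair 1 (95% exact counting interval −0.44 to −0.12) and −0.27 in pair 2 (−0.40 to −0.13). The log2 fold change was −0.27 ± 0.22 (SE; adjusted p = 1.00, edgeR) without the block and −0.27 ± 0.11 with it (adjusted p = 0.0691), and so it did not pass. With a correction for GC and length the blocked value moved to −0.10 (adjusted p = 0.678).

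*Upf2*, the bridge between UPF1 and UPF3, was thinly counted. It stood at 4.70 and 6.11 CPM in IP and 5.79 and 4.77 CPM in total RNA, on 26 to 68 counts. The groups overlapped, and the pairs gave −0.30 (−0.98 to 0.41) and 0.36 (−0.29 to 1.04). The log2 fold change with the block was 0.041 ± 0.33 (adjusted p = 0.960, edgeR), and its 95% interval from −0.60 to 0.69 leaves room for a sizeable difference either way.

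The UPF3 paralogues differed more between the total RNA libraries than any other member. *Upf3a* stood at 7.66 and 9.07 CPM in IP and at 11.1 and 3.78 CPM in total RNA. *Upf3b* ran the other way, at 3.25 and 2.43 CPM in IP and 2.23 and 8.22 CPM in total RNA. In both genes the IP libraries lay between the total RNA libraries. *Upf3a* made up 83.3% of the counts of both paralogues in total RNA replicate 1 (50 against 10 *Upf3b* counts, 95% exact interval 71.5 to 91.7%) and 31.5% in total RNA replicate 2 (23 against 50 *Upf3b* counts, 21.1 to 43.4%). In the IP libraries the share was 70.2% (62.2 to 77.4%) and 78.9% (70.8 to 85.6%), so total RNA replicate 2 stood apart from the 3 other libraries, beyond counting error.

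Their ratios within pairs therefore had opposite signs. *Upf3a* gave −0.54 (−1.04 to −0.024) in pair 1 and 1.26 (0.60 to 1.98) in pair 2, and *Upf3b* gave 0.55 (−0.46 to 1.70) and −1.76 (−2.49 to −1.06). These were the 2 members whose intervals did not overlap between pairs. With the block the log2 fold change was 0.26 ± 0.28 for *Upf3a* (adjusted p = 0.607, edgeR) and −0.80 ± 0.39 for *Upf3b* (adjusted p = 0.166). These SEs rest on a spread pooled over genes and do not take in how far the pairs of each gene disagreed. Without total RNA replicate 2 and without the block the signs turned, to −0.41 for *Upf3a* and 0.35 for *Upf3b*. The intervals cover counting error only, as no removal of PCR duplicates is stated.

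*Smg1* was the steadiest member. The kinase stood at 70.1 and 69.0 CPM in IP and at 69.9 and 72.7 CPM in total RNA, on 314 to 970 counts. The 4 libraries lay within a few CPM of each other, and the pairs gave 0.0039 (−0.18 to 0.19) and −0.075 (−0.25 to 0.097). The log2 fold change with the block was −0.036 ± 0.11 (adjusted p = 0.886, edgeR), with a 95% interval from −0.26 to 0.19.

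*Smg5* was the member that fell in IP with the block. The adaptor stood at 36.2 and 52.5 CPM in IP and at 47.7 and 64.4 CPM in total RNA. The groups overlapped, because both replicate 2 libraries were the higher of their kind, but IP was the lower within each pair, by −0.40 (−0.63 to −0.16) and −0.30 (−0.48 to −0.11). The log2 fold change was −0.34 ± 0.28 without the block (adjusted p = 1.00, edgeR) and −0.34 ± 0.12 with it (adjusted p = 0.0372), which is 1.27-fold lower in IP. The call held in 4 of 9 fits with the block, in which the log2 fold change ran from −0.43 to −0.21 and the adjusted p from 0.0349 to 0.332, the highest with the correction for GC and length.

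*Smg6*, the endonuclease, stood at 23.7 and 26.9 CPM in IP and at 22.5 and 30.7 CPM in total RNA. The IP values lay between those of total RNA. The log2 fold change with the block was −0.071 ± 0.15 (adjusted p = 0.826, edgeR), with a 95% interval from −0.37 to 0.23. The blocked fold changes of all 3 SMG members were below 0 with overlapping 95% intervals (−0.58 to −0.10 for *Smg5*), and the differences between them were not tested.

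Neither rescue factor passed the test. *Pelo* stood at 7.73 and 6.56 CPM in IP and at 6.90 and 10.2 CPM in total RNA, on 31 to 107 counts. Pair 1 gave 0.16 (−0.42 to 0.79) and pair 2 −0.64 (−1.14 to −0.12), and the log2 fold change with the block was −0.26 ± 0.27 (adjusted p = 0.589, edgeR). *Ltn1* stood at 60.1 and 78.5 CPM in IP and at 63.7 and 65.3 CPM in total RNA. The total RNA libraries were close together and lay between the IP libraries. Its pairs gave −0.083 (−0.28 to 0.12) and 0.27 (0.094 to 0.44), and the log2 fold change with the block was 0.099 ± 0.11 (adjusted p = 0.642), with a 95% interval from −0.13 to 0.32.

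**Figure D2:**
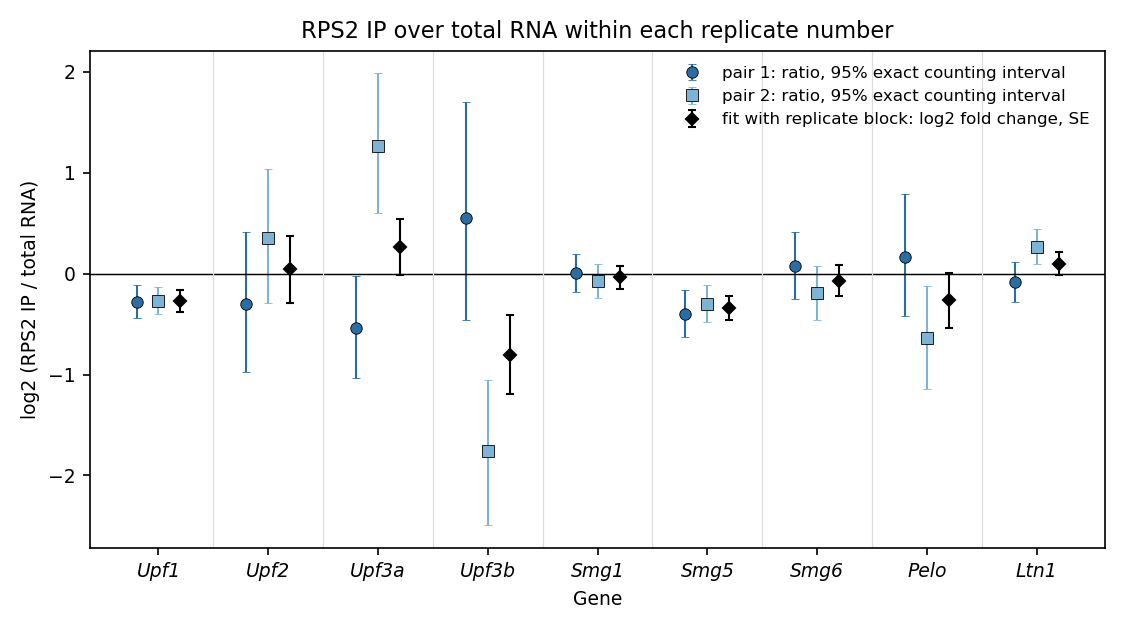
Log2 ratio of RPS2 IP to total RNA for each member in pair 1 (circles) and pair 2 (squares) with 95% exact counting intervals, and the log2 fold change of the fit with the replicate block (diamonds) with its SE. *Upf1* and *Smg5* lie below 0 in both pairs, and the intervals of *Upf3a* and *Upf3b* do not overlap between pairs.

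The pairs gave opposite signs for 7 of the 9 members, against 33.5% of all genes. The 2 members that were below 0 in both pairs were *Upf1* and *Smg5* (32.2% of all genes), and 0 members were above 0 in both (34.3%). The members' median ratio was −0.083 in pair 1 and −0.19 in pair 2. In 5 of these 7 the intervals of the pairs overlapped, and *Upf3a* and *Upf3b* were the exceptions.

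Some members varied with the replicate number. Replicate 2 was above replicate 1 by 0.27 and 0.26 on the log2 CPM scale for *Upf1* in IP and total RNA, and by 0.53 and 0.43 for *Smg5*. *Smg6* (0.18 and 0.45) and *Ltn1* (0.38 and 0.035) were also higher in replicate 2 of both kinds. The other 5 members had opposite signs in IP and total RNA, as in *Upf2* (0.36 and −0.27) and *Pelo* (−0.23 and 0.55). Microglial, astrocyte and mural markers and *Gm42418* moved with the replicate number as well, and their part in these values was not tested. Centred on each gene's mean, the log2 CPM profiles of *Smg1*, *Upf1* and *Smg6* lay 0.177, 0.181 and 0.187 from the members' mean profile (Euclidean distance over the 4 libraries). *Upf3a* and *Upf3b* lay 1.29 and 1.27 from it. Of 7763 genes with a mean of at least 10 CPM, excluding the members, *Mrps5*, *Peg3*, *Abr*, *Clmp* and *Vps53* had the most similar profiles to the mean, at distances of 0.0307 to 0.0384.

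GC content moved with the ratio. *Upf1* (57.9% GC over its annotated transcripts), *Pelo* (57.9%) and *Smg5* (53.9%) were the members richest in GC, and with *Upf3b* they had the lowest log2 fold changes with the block. *Upf3b*, at 42.4%, was the poorest in GC. Spearman's rho between GC content and that fold change was −0.23 over the 9 members and −0.32 over 12328 genes, which share the same 4 libraries. With the correction for GC and length no member passed the test.

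**Figure D3:**
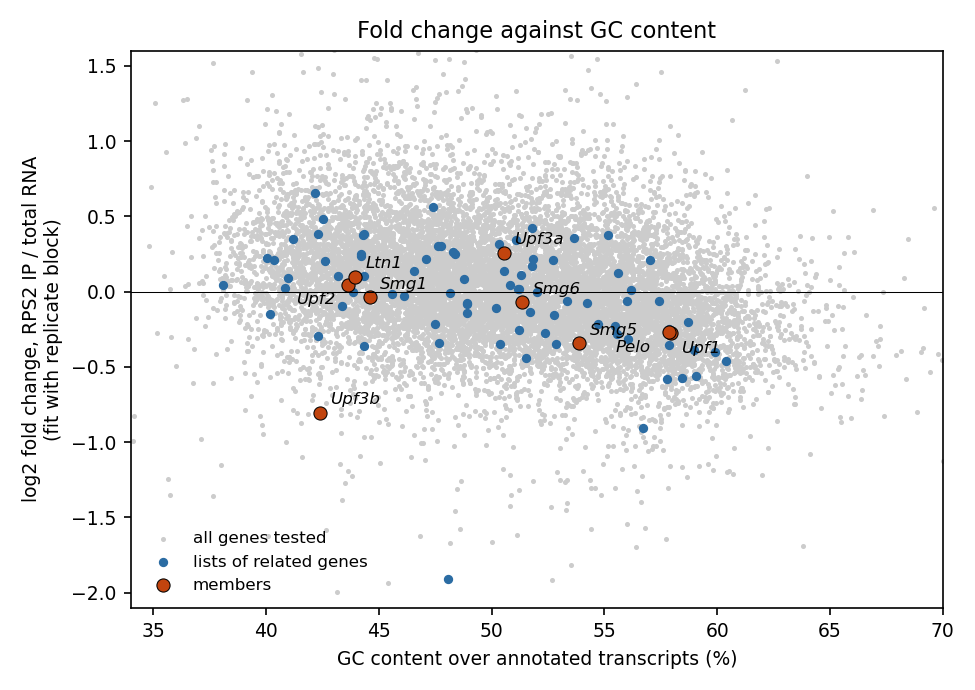
Log2 fold change of RPS2 IP over total RNA in the fit with the replicate block against GC content of the annotated transcripts; grey points are all genes tested, blue points the genes of the related lists and orange points the members, and 55 genes lie outside the axes. The cloud slopes downwards. *Upf1* and *Pelo* lie towards its GC-rich end, and *Smg5* lies nearer its middle.

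Genes that work with the members were read from 6 lists. The lists were chosen with earlier results of these data known, so their shares of calls are a description and not independent support. Of 85 genes listed 82 were tested, and with the block 4 were higher in IP and 10 lower (17.1% called, against 14.2% of all genes). Without the block 0 of the 82 passed (edgeR; adjusted p = 1.00 for each gene named), and 1 had an unadjusted p under 0.05. With the correction for GC and length 3 of these 14 calls remained, *Edf1*, *Zfp598* and *Snhg12*. Every value below comes from the fit with the block unless stated.

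Among the 9 other NMD factors 3 fell in IP and 0 rose (33.3% called, against 14.2% of all genes), with a median log2 fold change of −0.14. *Smg9*, a subunit of the SMG1 kinase complex, stood at 30.4 and 28.2 CPM in IP and at 39.2 and 38.1 CPM in total RNA (−0.40 ± 0.14, edgeR adjusted p = 0.0304). *Dhx34*, a helicase that promotes UPF1 phosphorylation, stood at 17.0 and 17.9 CPM against 26.7 and 21.5 CPM (−0.46 ± 0.17, adjusted p = 0.0445). *Mov10*, a helicase that binds UPF1, stood at 4.77 and 2.87 CPM against 7.35 and 6.74 CPM (−0.91 ± 0.33, adjusted p = 0.0454). The groups did not overlap in any of these 3 genes, as in 14.9% of all genes with IP below. With the correction for GC and length none of the 3 passed (edgeR adjusted p = 0.389 for *Smg9*, 0.531 for *Dhx34* and 0.182 for *Mov10*).

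The exon junction complex, which marks splice junctions for UPF2 and UPF3, had 9 of its 10 listed genes tested, and 1 fell (11.1% called). *Acin1*, of the associated ASAP complex, stood at 53.5 and 42.2 CPM in IP and at 61.2 and 60.3 CPM in total RNA (−0.36 ± 0.12, edgeR adjusted p = 0.0249). *Rbm8a*, a core subunit (0.38 ± 0.26, adjusted p = 0.378), and *Pnn* (−0.36 ± 0.21, adjusted p = 0.267) marked the ends of the list and did not pass. The list's median was −0.16, and *Magohb* was too thinly counted to be tested.

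Of 10 genes for termination, recycling, decapping and decay from the 5′ end 1 fell (10% called), and the median was 0.16. *Edc4*, a scaffold of the decapping complex, stood at 76.6 and 116.9 CPM in IP and at 98.4 and 141.7 CPM in total RNA (−0.32 ± 0.11, edgeR adjusted p = 0.0256), on a gene that shares 458 exonic bases with *Nrn1l*. Another enhancer of decapping, *Edc3*, had the highest value of the list at 0.43 ± 0.19 (adjusted p = 0.120), and *Dcp1b*, a cofactor of the decapping enzyme, the lowest at −0.44 ± 0.30 (adjusted p = 0.371).

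Among 22 other genes of ribosome rescue and quality control 1 rose and 2 fell, with a median of 0.0021. That was 13.6% called, near the 14.2% of all genes. The 2 that fell encode sensors of collided ribosomes. *Edf1*, which is recruited to collisions, stood at 64.9 and 56.2 CPM in IP and at 93.7 and 86.3 CPM in total RNA (−0.57 ± 0.11, edgeR adjusted p = 1.6e-05). Its unadjusted p without the block was 0.0354, the 1 such value among the 82 genes. *Zfp598*, the ubiquitin ligase that marks collided ribosomes, stood at 32.9 and 27.8 CPM against 49.4 and 40.3 CPM (−0.56 ± 0.13, adjusted p = 6.5e-04). For both the groups did not overlap, as in 14.9% of all genes with IP below. The calls of both remained with the correction for GC and length (−0.58 and −0.43). *Ufd1*, a cofactor of the VCP unfoldase that extracts chains ubiquitinated by Listerin, stood at 22.8 and 24.9 CPM in IP and at 13.6 and 18.7 CPM in total RNA (0.56 ± 0.17, adjusted p = 0.0123).

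The SKI complex and the exosome, which degrade mRNAs from the 3′ end after rescue, had 13 of 14 genes tested and a median of 0.22. *Skiv2l*, the SKI helicase, fell from 91.3 and 89.6 CPM in total RNA to 72.6 and 68.9 CPM in IP (−0.35 ± 0.11, edgeR adjusted p = 0.0141). *Exosc3*, a cap subunit of the exosome, had the highest value at 0.31 ± 0.44 (adjusted p = 0.712), on 9 to 47 counts. *Exosc6* was at 0 in all libraries, and all of its 1326 exonic bases are shared with *Aars*.

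Of 20 genes with transcripts known to be NMD targets 19 were tested, and 3 rose and 2 fell. That was 26.3% called, against 14.2% of all genes, and the median was 0.00045. The counts are per gene and do not separate the targeted transcripts from others of the same gene. *Atf4*, the stress-response factor with upstream reading frames, stood at 75.5 and 113.6 CPM in IP and at 61.9 and 82.8 CPM in total RNA (0.38 ± 0.11, edgeR adjusted p = 0.00879). *Cdkn1a*, the cell-cycle inhibitor p21, stood at 114.1 and 156.0 CPM against 97.1 and 112.3 CPM (0.36 ± 0.11, adjusted p = 0.00869). *Srsf7*, a splicing factor with a poison exon, stood at 11.3 and 18.0 CPM against 6.23 and 12.5 CPM (0.65 ± 0.23, adjusted p = 0.0337). *Cdkn1a* was the one of the 3 whose groups did not overlap, as in 16.9% of all genes with IP above. In the others IP was the higher within each replicate number.

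The 2 that fell were a neuronal mRNA and a non-coding host gene. *Arc*, an activity-regulated mRNA with introns in its 3′ UTR, stood at 121.6 and 232.2 CPM in IP and at 154.8 and 312.2 CPM in total RNA (−0.39 ± 0.10, edgeR adjusted p = 0.00193). *Snhg12*, a host of small nucleolar RNAs, stood at 59.8 and 12.3 CPM in IP and at 220.5 and 48.0 CPM in total RNA (−1.91 ± 0.12, adjusted p = 5.2e-54). Its counted exons hold 5 small nucleolar RNA genes, and reads of those cannot be told apart from reads of the host. In both genes the groups overlapped and the replicates differed more than the pairs did.

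**Figure D4:**
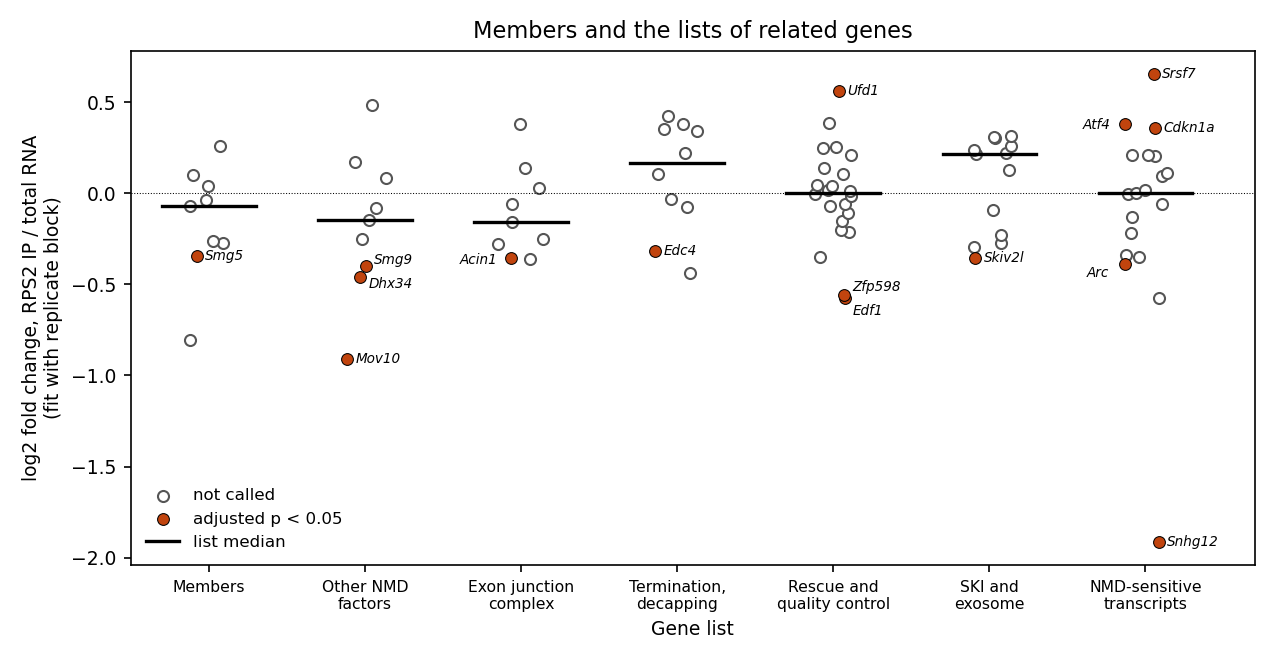
Log2 fold change of RPS2 IP over total RNA in the fit with the replicate block for the members and 6 lists of related genes; each point is a gene, orange marks an adjusted p under 0.05 and the bar is the list's median. *Smg5* is the called member, and the called genes of the lists lie on both sides of 0.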

How the data were processed

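RNA-seq libraries of RPS2 IP and of total RNA were compared, 2 of each. The deposited files hold raw counts per gene together with the exonic length of each gene. Per the file headers, the authors made these counts with featureCounts 1.5.3 in stranded mode against an mm10 annotation, without options for reads at several loci or in several genes, so such reads were not counted. Per the study's methods, reads were single-end, trimmed by cutadapt and mapped by STAR over their full length. No removal of PCR duplicates was named, which makes counting intervals too narrow.

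Of 31053 identifiers 30934 carried a GENCODE M21 symbol. Of several identifiers with the same symbol (28 symbols, *Ddit3* among the listed genes), the lowest was kept under that symbol. The analysis ran in R 4.3.3. Counts were fitted by edgeR 4.0.16 (filterByExpr, TMM, glmQLFit, glmQLFTest, two-sided) and Benjamini-Hochberg adjustment over 12336 genes, at a threshold of 0.05. The fit was made without and with the replicate number as a block. The numbers pair the libraries, since total RNA was taken from the same samples before the IP, and deviations from the group means correlated between same-numbered libraries (Pearson's r = 0.733 across genes). The blocked fit has 1 residual degree of freedom per gene, and its prior degrees of freedom were estimated as infinite. Its SEs, 95% intervals and p-values therefore rest on a spread pooled over genes. They do not measure how far the pairs of a single gene disagree. Ratios within a pair are of counts scaled by effective library size, with 95% Clopper-Pearson intervals of the split of both counts. DESeq2 1.42.0, limma-voom (limma 3.58.1), other scalings and filters, a correction for GC content and exonic length entered as an offset, thinning to the smallest library and leaving out each library were alternatives. The fits were tested on data simulated with the replicate difference kept and a common dispersion for all genes, that of the blocked fit. The blocked fit pools the spread over genes as well. Its recovery therefore does not show how far its calls hold for genes whose pairs disagree. Of 67 genes changed by a log2 fold of 2, 0 were recovered without the block and 63 with it. With the block 56 of 67 were recovered at a log2 fold of 1 and 20 of 66 at 0.5.

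The members and lists were chosen with earlier results of these data known. All 9 members are named. From each list up to 3 genes called higher and 3 called lower in the blocked fit are named by size of fold change, and, where fewer than 2 were called, its highest and lowest gene. Marker lists were written from general knowledge.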

Additional observations from a re-analysis of the deposited data

How the results depend on the processing

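Pairing had the largest effect. The replicate block moved the calls over all genes from 0 to 818 higher and 931 lower, those of members from 0 to 1 lower and those of the related lists from 0 to 4 higher and 10 lower. With the block, counts over all genes (higher and lower) were 283 and 878 by library size only and 769 and 699 without a low-count filter. They were 878 and 926 with at least 10 counts in every library and 685 and 927 with limma-voom. The correction for GC and length gave 456 and 380, thinning 588 and 759, and leaving out the most counted gene 820 and 947. DESeq2 gave 158 and 382, but left 7653 of 12336 genes without an adjusted p. Among them were *Upf2*, *Upf3a*, *Upf3b*, *Smg6* and *Pelo*. Of the 14 related genes called with the block, 10 had an adjusted p there. The 1 member was also called by library size only, with at least 10 counts and without the most counted gene. Related genes called higher and lower numbered 4 and 4 without a filter, 4 and 9 with at least 10 counts, 3 and 9 with limma-voom, 2 and 9 after thinning and 4 and 10 without the most counted gene, whereas 10, 5 and 3 were lower and 0 higher by library size only, after that correction and by DESeq2. Without the block 5 genes were lower with DESeq2 and 14 without a filter, and leaving out a library gave 1 to 8 lower and 0 higher, with 0 members.

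The direction of *Upf1* and *Smg5* held under all 18 alternatives, but not the size. Without IP replicates 1 and 2 and total RNA replicates 1 and 2 in turn (no block), *Upf1* stood at −0.15, −0.42, −0.40 and −0.14 and *Smg5* at −0.099, −0.64, −0.54 and −0.11. The same omissions gave −3.45 to −0.41 for *Snhg12*, −0.65 to −0.026 for *Edc4* and 0.055 to 0.65 for *Atf4*. That of *Upf2* turned by library size only (−0.014, and −0.045 with the block), with that correction (−0.13) and without IP replicate 2 or total RNA replicate 2 (range of leaving out a library −0.17 to 0.21). That correction also turned *Smg1* (0.033), *Smg6* (0.020) and *Ltn1* (−0.0037), and thinning turned *Smg1* (0.0046) and *Smg6* (0.048). Leaving out a library gave −0.41 to 1.14 for *Upf3a*, −1.53 to 0.35 for *Upf3b*, −0.28 to 0.17 for *Smg6*, −0.51 to 0.049 for *Pelo*, −0.11 to 0.28 for *Ltn1*, −0.31 to 1.12 for *Exosc3* and −0.95 to 0.19 for *Arc*. *Smg6* was at 0.0078 without IP replicate 1. The cause of these turns was not tested.

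The members' median ratio in pair 2 was −0.34 by library size only and −0.11 with library size without the most counted gene, and that last scaling raised their summed level from 48.5 to 73.6 CPM per kb in IP and from 55.3 to 79.8 in total RNA. *Upf2*, *Upf3a*, *Upf3b* and *Pelo*, on 10 to 107 counts per library, have intervals too wide to show small differences.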
